A study of Homo sapiens with 32 samples.

Results

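Most of the genes described here encode core proteins of the spliceosome, and 6 LSM genes among them have other roles. All were chosen by name alone, as the protein-coding genes of the GRCh37 annotation whose symbols begin with SF3A or SF3B and a digit, PRPF and a digit, SNRP, SNRNP, or LSM and a digit. The rule found 54 of 19515 protein-coding genes, and no measured value was used to pick them. Tags were counted on the strand of each gene, in the exons of any of its transcripts and in the introns that remained.

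The libraries came from iCLIP, in which UV light joins a protein to the RNA it touches, the protein is purified, and the base next to each joined site is read by sequencing. The cells were HEK293T FlpIn, a human embryonic kidney line into which 1 transgene is placed at a fixed site, and 4 stable lines were compared with 3 libraries each. They carried FLAG-tagged Alyref, FLAG-tagged Chtop, FLAG-tagged Nxf1, or the FLAG tag with no protein (Control). The tagged protein was induced with tetracycline over 48 h. The Nxf1 line received 5 ng/mL, whereas the lines of the other tagged proteins received 10 ng/mL. The dose of the Control line is not given in the sources used here, the tag and the antibody were the same in all groups, and no source used here states that the untagged protein had been removed. Alyref and Chtop are RNA-binding subunits or partners of the TREX complex, which prepares messenger RNA for export, and Nxf1 is the export receptor. A tag count rises with the amount of a transcript as well as with crosslinking to it, and in bulk cells a change in few cells cannot be told apart from a smaller change in all of them. The labels number the 3 libraries of a group without saying that they were separate cultures, so the p-values measure the spread between these libraries, which may be technical.

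The spliceosome removes introns with the help of small nuclear ribonucleoproteins. U1 recognises the 5′ splice site, U2 the branch point, and the U4/U6 and U5 particles join as a tri-snRNP before catalysis. The Sm proteins form a ring around the U1, U2, U4 and U5 RNAs, a related ring of LSM proteins binds U6, and the minor spliceosome has proteins of its own for a rare class of introns. The export factors meet the transcripts of these genes as they meet any other messenger RNA: as cargo that is spliced, packaged and exported.

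Depth decided what could be seen. Library totals ran from 7017 to 631704 deduplicated tags, the library numbered 1 was the shallowest of each group, and 3 tags corresponded to between 4.75 and 428 CPM (tags scaled to a common library total). Between 60.7 and 86.7% of tags fell in exactly 1 gene. Of 10 marker genes of liver, blood and muscle cells, which this line should lack, 5, 3, 1 and 1 had an exonic tag in Alyref, Chtop, Nxf1 and Control, with 10, 9, 2 and 1 exonic tags in all and at most 21.4 CPM in any library, and their part in any difference was not tested.

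The 54 genes held 10484 tags, 7965 of them exonic and 2519 intronic. Alyref accounted for 5807 tags, Chtop for 3566, Nxf1 for 857 and Control for 254. Every member had at least 1 tag in Alyref, Chtop and Nxf1, and 47 had one in Control. The 10 most tagged genes by mean CPM held 60.4% of the tags, and 17 members had fewer than 50. As a share of all tags of a library, the members took 0.438% ± 0.025 in Alyref, 0.340% ± 0.025 in Chtop, 0.327% ± 0.10 in Nxf1 and 0.316% ± 0.11 in Control (mean ± SD, n = 3). The 3 Alyref libraries lay at 0.432, 0.465 and 0.417%, above the 3 Chtop libraries at 0.319, 0.368 and 0.333%. The Nxf1 and Control libraries spread over both ranges, from 0.209 to 0.393% and from 0.200 to 0.428%. For the shallowest library, Control 1, the 95% Wilson interval of the share was 0.30 to 0.61%, which covers counting error only.

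The members were more exonic than the average gene in all groups. The exonic share of their tags was 77.4% ± 4.7 in Alyref, 80.8% ± 4.8 in Chtop, 67.8% ± 9.2 in Nxf1 and 51.9% ± 25 in Control, against means of 59.5, 71.6, 48.7 and 33.0% over all protein-coding genes. The 70 other splicing factor genes that the name rule leaves out had means of 75.5, 85.5, 67.1 and 47.0%, close to those of the members. The Control libraries differed most among themselves, at 80.0, 43.3 and 32.4% on 30, 150 and 74 tags.

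Within the exons, the members carried their Alyref tags further towards the 5′ end than their Chtop tags. First exons of the canonical transcripts held 12.7% ± 2.4 of exonic tags in Alyref and 5.67% ± 0.93 in Chtop, with 15.5, 11.4 and 11.3% in the Alyref libraries and 6.67, 5.51 and 4.83% in the Chtop libraries. The 3′ untranslated regions (UTRs) held 20.5% ± 1.3 in Alyref and 34.8% ± 2.8 in Chtop, again with no overlap between the libraries. Nxf1 had 7.91% ± 1.1 in first exons and 30.6% ± 8.6 in 3′ UTRs, and Control had 9.48% ± 8.6 and 29.8% ± 15. All protein-coding genes moved the same way with larger 3′ UTR shares, at 28.1% in Alyref, 45.0% in Chtop, 44.9% in Nxf1 and 40.4% in Control, and with first-exon shares of 9.80, 6.67, 7.34 and 9.07%. Sums over the members were not tested, since the members are not replicates.

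**Figure D1:**
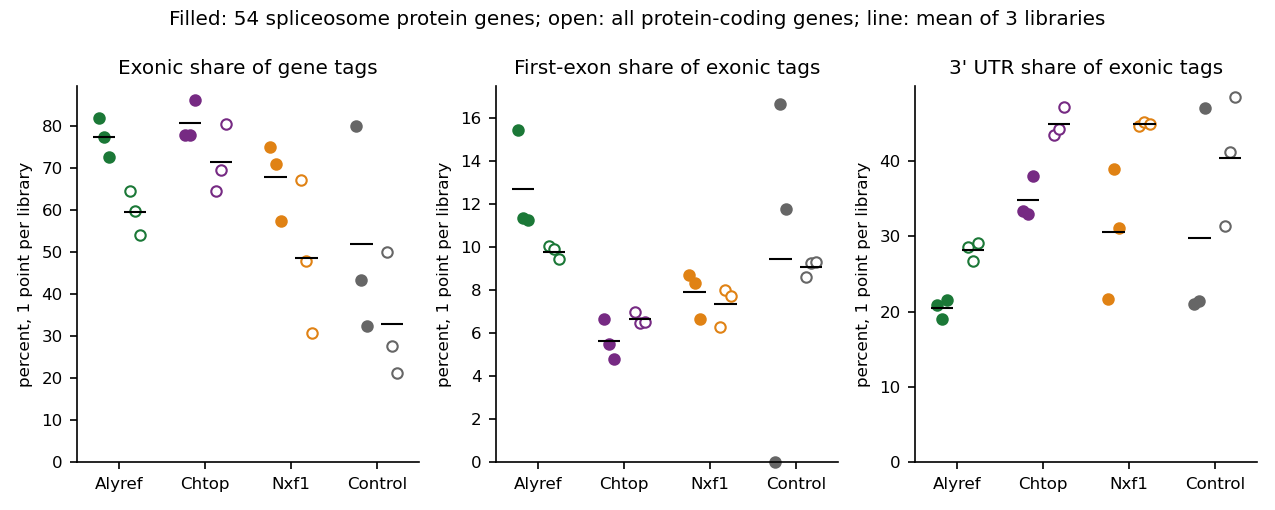
Share of tags, in percent, that were exonic (left), in first exons (middle) and in 3′ UTRs (right), with 1 point per library, filled for the 54 members and open for all protein-coding genes, and a line at the mean of 3 libraries. In the members, Alyref and Chtop do not overlap in first-exon share (lowest Alyref 11.3%, highest Chtop 6.67%) or in 3′ UTR share (highest Alyref 21.5%, lowest Chtop 33.0%).

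Gene by gene the order was mostly the same. Among the 25 members with at least 20 tags in the untranslated and coding parts of the canonical transcript in both groups, the 3′ UTR share was higher in Chtop than in Alyref in 23 (92.0%), and the first-exon share was higher in Alyref in 22 (88.0%). The same directions held in 84.7% and 66.4% of the 5276 protein-coding genes with that many tags, and the median difference in 3′ UTR share was 9.27 percentage points over the members and 15.2 over all. In PRPF39 the 3′ UTR share was 21.8% in Alyref and 52.4% in Chtop, in SNRNP70 it was 8.75 and 34.7%, and in SNRNP48 it was 56.9 and 90.9%. PRPF4B went the other way, at 24% in Alyref and 17.9% in Chtop, and so did PRPF6, at 3.03 and 0%. These genes were picked as examples after their values were seen.

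The proteins of the U2 particle, 11 genes, held 26.5% of the member tags. Their summed level was 1217 ± 53 CPM in Alyref, 836 ± 117 in Chtop, 757 ± 290 in Nxf1 and 923 ± 685 in Control. SF3B3, a scaffold of the SF3b complex that holds the branch point, was the most tagged member, at 430 ± 74 CPM in Alyref, 359 ± 41 in Chtop, 423 ± 242 in Nxf1 and 525 ± 539 in Control, and the groups overlapped. A further 51 tags of SF3B3 fell in an overlapping gene as well and were left out.

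SF3A2, a subunit of the SF3a complex that joins SF3b in the mature U2 particle, separated Alyref from Chtop. Its level was 184.5, 190.0 and 162.4 CPM in the Alyref libraries, on 15, 120 and 98 tags. It was 42.5, 66.8 and 55.9 CPM in the Chtop libraries, on 2, 36 and 24 tags. The lowest Alyref library was above the highest Chtop library, while Nxf1 (122.9, 92.3 and 39.0 CPM) and Control (285.0, 64.3 and 81.1 CPM) spread widely, the 285.0 resting on 2 tags. SF3A2 passed the filter on low counts through its Alyref libraries, since outside Alyref only Nxf1 1 and Control 1 reached that level. Being tested thus already rested on high values in Alyref. The difference of Alyref from Chtop carries that selection, although its call was kept without the filter. The difference was 1.49 on the log2 scale (SE 0.30, adjusted p = 0.0009, edgeR's quasi-likelihood test with Benjamini-Hochberg adjustment over 3381 genes), and it was kept in all 20 alternatives, among them the 12 fits that each left out 1 library (log2 difference 1.39 to 1.59, highest adjusted p 0.0481). The position of these tags differed as well: exons 1 and 2 held 75 Alyref tags and 4 Chtop tags, and the last exon 46 and 31. Exon 1 alone had 30 Alyref tags and none in the other 9 libraries.

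SF3B1, the subunit of SF3b that contacts the branch point and is often mutated in myelodysplastic disease, was low in Nxf1. Its level was 344.4, 349.8 and 275.2 CPM in Alyref and 148.8, 267.2 and 344.5 CPM in Chtop. It was 122.9, 75.5 and 61.3 CPM in Nxf1 and 285.0, 107.2 and 81.1 CPM in Control. All Alyref and Chtop libraries were above all Nxf1 libraries, the shallow Nxf1 1 holding a single tag. Alyref exceeded Nxf1 by 1.89 (log2, SE 0.39, adjusted p = 0.00455 by edgeR) and Chtop exceeded Nxf1 by 1.77 (SE 0.39, adjusted p = 0.00175). The second call was kept in all 20 alternatives, with a highest adjusted p of 0.0345. The first was lost without Alyref 2 (adjusted p = 0.0544), Nxf1 2 (0.0696) or Nxf1 3 (0.0730). The 2 contrasts share the Nxf1 libraries. Along the transcript, exons 1 and 2 of SF3B1 had 48 Alyref tags and 1 Chtop tag, although the last exon had 50 and 62 and the exons between them 241 and 206. In the same order of exons, Nxf1 had 1, 4 and 10 tags and Control had 3, 1 and 2. The tags of exons 1 and 2 were thus not particular to Alyref.

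The start of both transcripts is shown because it carried some of the most tagged bases of the Alyref libraries. The base of each tag is in capitals, in 21 bases of the hg19 sequence. In SF3A2 it was the first base of the canonical transcript, in the 5′ UTR of exon 1, with 4 Alyref tags in 2 libraries. In SF3B1 it was the base just before the start of the canonical transcript, with 4 Alyref tags in all 3 libraries, and none of the bases had a tag in the other groups.
SF3A2 start, chr19:2236813-2236833, plus strand: cccggaagtgCtttctttgcc
SF3B1 start, chr2:198299743-198299763, minus strand: ttgggagcgcCagttccgtct
Within 10 bases of the canonical start, 24 members had a tag, and of these 70 tags 57 were from Alyref, 10 from Chtop, 3 from Nxf1 and none from Control. SF3A2 had 9 Alyref tags there (3, 5 and 1 in the 3 libraries), SF3B1 had 7 (2, 3 and 2), SNRNP70 had 8 (0, 2 and 6) and SF3B3 had 5 (1, 2 and 2). Chtop had 2 tags at SNRNP70, 2 at SF3B3 and none at SF3A2 or SF3B1. The windows at the start were chosen after the most tagged bases had been seen, and the counts were not tested. They are not scaled for depth, and the groups held 5807, 3566, 857 and 254 member tags in Alyref, Chtop, Nxf1 and Control. Such counts over all protein-coding genes are not given, so the pattern cannot be read as one of the members.

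**Figure D2:**
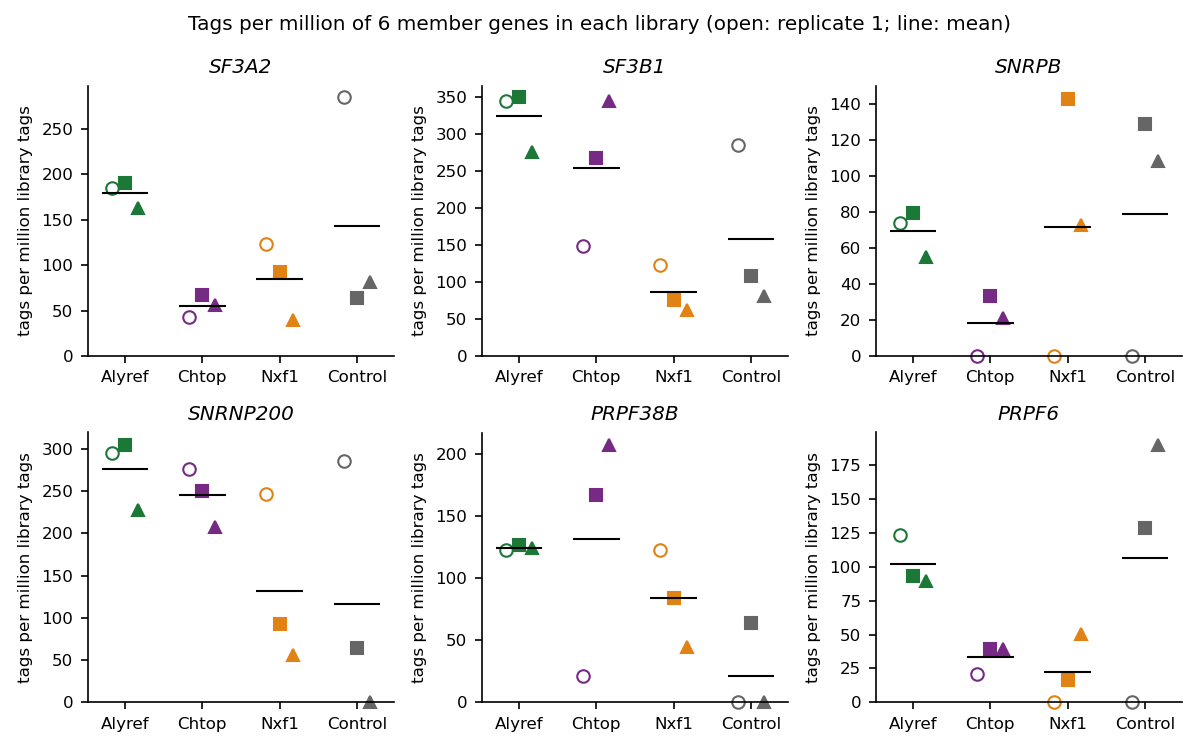
CPM of 6 members in each of the 12 libraries, with open circles for the shallow replicate 1, squares for replicate 2, triangles for replicate 3 and a line at the mean of the group. In SF3A2 the Alyref libraries (162.4 to 190.0 CPM) lie above the Chtop libraries (42.5 to 66.8 CPM), and in SF3B1 the Alyref and Chtop libraries (148.8 CPM and above) lie above those of Nxf1 (122.9 CPM and below).

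The 6 U1 genes held 18.4% of the member tags, at 864 ± 82 CPM in Alyref, 655 ± 6.4 in Chtop, 606 ± 455 in Nxf1 and 477 ± 284 in Control. SNRNP70 encodes the U1 protein that binds the first stem-loop of U1 RNA. Per length of exon it was the most tagged of the 10 leading members in Alyref, at 75.8 exonic CPM per kilobase, with SF3A2 next at 50.9. Its gene level was 430.5, 455.9 and 382.9 CPM in Alyref, 361.3, 213.4 and 169.9 CPM in Chtop, 491.8, 209.7 and 94.8 CPM in Nxf1, and 570.0, 235.9 and 54.1 CPM in Control. Alyref lay above Chtop in every library by 0.88 on the log2 scale (SE 0.33), which missed the threshold (edgeR adjusted p = 0.0573). Its exonic tags alone exceeded those of Nxf1 by 1.59 (SE 0.54, adjusted p = 0.0487). That call was lost without Alyref 1 (0.0783), Alyref 2 (0.190), Alyref 3 (0.0862), Nxf1 2 (0.124) or Nxf1 3 (0.451). It was also lost with DESeq2's test (0.0935) or size factors (0.0546), without a filter on low counts (0.110), with tags of overlapping genes counted for each (0.0548), with at most 1 tag per base (0.0509), and with replicate number as a block (0.0797). For the genes that follow, such other settings are named where they ended a call.

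PRPF39, a relative of a yeast U1 protein that helps select 5′ splice sites, was higher in Chtop than in Nxf1. It had 42.5, 193.0 and 216.5 CPM in Chtop and 245.9, 67.1 and 27.9 CPM in Nxf1, where the 245.9 rests on 2 tags, and the groups overlapped. The fitted difference was 1.61 (SE 0.48, adjusted p = 0.0134 by edgeR), and it was lost without Nxf1 3 (0.211) and by DESeq2 (0.164). SNRPA, the protein of the second U1 stem-loop, had 126 tags in Alyref, 70 in Chtop, 18 in Nxf1 and none in Control, for which no fold is given.

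The largest class was that of the U4/U6 and tri-snRNP proteins, 11 genes with 30.3% of the member tags. Their summed level was 1301 ± 80 CPM in Alyref, 1068 ± 185 in Chtop, 836 ± 205 in Nxf1 and 817 ± 204 in Control. PRPF8, the scaffold of the catalytic core, varied little: 315 ± 30 CPM in Alyref, 235 ± 65 in Chtop, 261 ± 52 in Nxf1 and 248 ± 174 in Control, and no comparison passed the test. SNRNP200, the helicase that unwinds U4 from U6, had 295.2, 303.9 and 227.1 CPM in Alyref and 276.3, 250.5 and 207.2 CPM in Chtop. In Nxf1 it had 245.9, 92.3 and 55.8 CPM on 2, 11 and 10 tags, and in Control 285.0, 64.3 and 0 CPM on 2, 3 and 0 tags. The shallow libraries of Nxf1 and Control thus overlapped Alyref and Chtop, and the deep ones did not. SNRNP200 was higher in Alyref than in Nxf1 by 1.50 (SE 0.41, adjusted p = 0.0269 by edgeR), in Chtop than in Nxf1 by 1.37 (SE 0.41, adjusted p = 0.0146), and in Chtop than in Control by 2.02 (SE 0.62, adjusted p = 0.0263). The first was lost without Alyref 2 (0.155), Alyref 3 (0.0634), Nxf1 2 (0.113) or Nxf1 3 (0.278), the second without Nxf1 2 (0.0558) or Nxf1 3 (0.161), and the third without Control 2 (0.115) or Control 3 (0.192). DESeq2 gave 0.0806, 0.0530 and 0.0513 for the 3 differences, none of them a call, and without the filter the first (0.0733) and the second (0.0699) were lost.

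PRPF38B, a relative of a tri-snRNP protein, had 123.0, 126.6 and 124.3 CPM in Alyref and 21.3, 167.0 and 207.2 CPM in Chtop. It had 122.9, 83.9 and 44.6 CPM in Nxf1, and 0, 64.3 and 0 CPM in Control, on 3 tags in all. Chtop exceeded Control by 2.26 (SE 0.76, adjusted p = 0.0410 by edgeR) and Nxf1 by 1.15 (SE 0.44, adjusted p = 0.0476). The excess over Control was lost without Alyref 2 (0.0571), Alyref 3 (0.0532), Chtop 3 (0.124), Nxf1 2 (0.0504), Control 1 (0.0742), Control 2 (0.0533) or Control 3 (0.225), and with DESeq2's size factors (0.0535), without the filter (0.0529) and with at most 1 tag per base (0.0538). The excess over Nxf1 was lost without Alyref 2 (0.101), Alyref 3 (0.0893), Chtop 3 (0.204), Nxf1 2 (0.0888) or Nxf1 3 (0.308), by DESeq2 (0.280), with its size factors (0.0549), without the filter (0.159) and with the replicate block (0.0560).

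PRPF4B, a kinase that phosphorylates tri-snRNP proteins, had 246.0, 269.1 and 253.6 CPM in Alyref, 212.5, 246.8 and 246.8 CPM in Chtop and 122.9, 142.6 and 61.3 CPM in Nxf1, so that all Nxf1 libraries lay below those of Alyref and Chtop. The Control libraries, at 285.0, 128.7 and 108.2 CPM on 2, 6 and 4 tags, overlapped all 3 groups. Chtop exceeded Nxf1 by 1.09 (SE 0.36, adjusted p = 0.0257 by edgeR), which was lost without Alyref 2 (0.0633), Alyref 3 (0.0525), Chtop 3 (0.0686) or Nxf1 3 (0.275), by DESeq2 (0.0830) and without the filter (0.157). PRPF6, which links U5 to U4/U6, had 123.0, 93.4 and 89.5 CPM in Alyref, 21.3, 39.0 and 39.6 CPM in Chtop, 0, 16.8 and 50.2 CPM in Nxf1, and 0, 128.7 and 189.3 CPM in Control. PRPF6 passed the filter on low counts only through Alyref 1, Control 2 and Control 3. Being tested thus already rested on high values in Alyref and Control, and both differences that follow carry that selection. Alyref lay above Chtop in every library, by 1.27 (SE 0.44, adjusted p = 0.0388 by edgeR), and Chtop was below Control by the fit, at -1.98 (SE 0.66, adjusted p = 0.0387), although Control 1 had no tag. The first call was lost without Alyref 1 (0.0552), Alyref 2 (0.185), Alyref 3 (0.219), Chtop 2 (0.131) or Chtop 3 (0.169), by DESeq2 (0.149), without the filter (0.0909) and with tags of overlapping genes counted for each (0.0581). The second was lost without Alyref 2 (0.0529), Alyref 3 (0.0569), Chtop 2 (0.0577), Chtop 3 (0.0784), Control 2 (0.128) or Control 3 (0.347), without the filter (0.361) and with tags of overlapping genes (0.0507). All 13 Control tags of PRPF6 were intronic, 6 of them at the bases given with the introns.

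The 8 Sm genes, short and with few tags, held 5.06%, at 224 ± 14 CPM in Alyref, 123 ± 42 in Chtop, 245 ± 161 in Nxf1 and 203 ± 186 in Control. SNRPB, which encodes the SmB proteins, was the only one tested, and it was low in Chtop. It passed the filter on low counts through its highest libraries, Nxf1 2, Control 2 and Control 3. Being tested thus already rested on high values in Nxf1 and Control, and the differences of Chtop from these groups carry that selection. The level of SNRPB was 73.8, 79.2 and 54.7 CPM in Alyref on 6, 50 and 33 tags. It was 0, 33.4 and 21 CPM in Chtop on 0, 18 and 9 tags, 0, 142.6 and 72.5 CPM in Nxf1 on 0, 17 and 13 tags, and 0, 128.7 and 108.2 CPM in Control on 0, 6 and 4 tags. A further 10 tags fell in an overlapping gene as well and were left out. Where a library had any tag, every Chtop value was below every value of the other groups. Chtop was below Nxf1 by -2.17 (log2, SE 0.57, adjusted p = 0.00589 by edgeR), and this was kept in all 19 alternatives that could test it, with a highest adjusted p of 0.0420. Chtop was also below Control, at -2.15 (SE 0.76, adjusted p = 0.0491), a call lost without Alyref 2 (0.0594), Alyref 3 (0.0580), Chtop 3 (0.117), Nxf1 3 (0.0550), Control 2 (0.283) or Control 3 (0.213), with library totals alone (0.0671), without the filter (0.369) and with tags of overlapping genes (0.0741). The difference from Alyref was 1.33 (SE 0.49) and did not pass the test (adjusted p = 0.0583). Exons 1 and 2 of SNRPB held 28 Alyref tags, 1 Chtop tag, 10 Nxf1 tags and 1 Control tag, and the last exon 18, 12, 6 and 3.

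The remaining classes were less tagged. The 6 LSM genes with roles outside the U6 ring held 9.31%, most of it in LSM14A, a translational repressor of cytoplasmic granules, at 209 ± 87 CPM in Alyref, 189 ± 71 in Chtop, 182 ± 65 in Nxf1 and 236 ± 169 in Control, all overlapping. The 7 genes of the U6 ring held 4.77%, the 3 genes of the minor spliceosome 2.80%, and PRPF18 and PRPF19 together 2.79%. The genes of the minor spliceosome had 94.4 ± 10 CPM in Alyref and 132 ± 15 in Chtop, without overlap, and 72.6 ± 76 in Nxf1 and 75.5 ± 82 in Control. SNRNP48 made up most of this, with 49.2, 66.5 and 66.3 CPM in Alyref and 127.5, 94.6 and 102.4 CPM in Chtop, a difference of -0.74 (log2, SE 0.38) that did not pass the test (edgeR adjusted p = 0.173). None of LSM14A, LSM12, LSM4, SNRNP48 and PRPF18, the members of these classes tested on gene tags, passed a test of gene tags.

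In all, 18 members had enough tags to be tested as genes, among 3381 genes tested. Chtop differed from Nxf1 in 7 of them, where 26.3% of all genes tested were called: 6 were higher in Chtop (background 14.5%) and 1 was lower (11.7%). Alyref differed from Nxf1 in 2 (4.88%, and 2.99% higher in Alyref) and from Chtop in 2 (16.6%, and 6.71% higher in Alyref), all 4 differences being higher in Alyref. Chtop differed from Control in 4, 2 of them higher and 2 lower (15.0%, with 9.55% higher and 5.47% lower). Alyref and Nxf1 differed from Control in none, at backgrounds of 0.237% and 0%. Of the 18 members, 5 had an unadjusted p under 0.05 for Alyref against Control and 2 for Nxf1 against Control, and DESeq2 also called none in these 2 comparisons, while the replicate block called 1 in Alyref against Control. The median log2 difference over the members was 0.72 for Alyref against Nxf1, where that of all genes tested was 0.01, 0.23 for Alyref against Chtop (all genes 0.02), and -0.03 for Chtop against Nxf1 (0.03). In the contrasts with Control, Alyref had a median of 0.60 (0.23), Chtop of 0.25 (0.24) and Nxf1 of -0.17 (0.17). Contrasts with a group in common share its libraries and are not independent. The other splicing factor genes, also 18 tested, had 1 called higher and 1 lower in Alyref against Chtop, none in Alyref against Nxf1, 2 higher and 1 lower in Chtop against Nxf1, and 2 higher in Chtop against Control.

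The 4 libraries numbered 1 were left out after their depth had been seen, and more members were then called in 5 of the 6 comparisons: 6 in Alyref against Chtop, 4 in Alyref against Nxf1, 8 in Chtop against Nxf1, 6 in Chtop against Control and 1 in Alyref against Control. Calls over all genes in this fit of 8 libraries are not given here, so the rise cannot be read as one of the members. SNRNP70 was then higher in Alyref than in Chtop (log2 1.01, SE 0.31, adjusted p = 0.0135 by edgeR), as were SNRPB (1.15, adjusted p = 0.0454) and SF3A3 (1.05, adjusted p = 0.0424), a subunit of the SF3a complex, while LSM14B was lower (-1.03, adjusted p = 0.0429). SNRNP200 was higher in Alyref than in Control (2.87, SE 0.72, adjusted p = 0.0112), SNRNP48 was higher in Chtop than in Nxf1 (1.57, SE 0.55, adjusted p = 0.0291), and SF3B1 was higher in Chtop than in Control (1.78, SE 0.56, adjusted p = 0.0241), as was SNRPA (adjusted p = 0.0365). The calls of SF3A2 in Alyref against Chtop (1.40, adjusted p = 0.00108) and of SF3B1 and SNRPB in Chtop against Nxf1 (2.07 and -1.98, adjusted p = 6.78e-05 and 0.00146) held in these 8 libraries. With no normalization beyond library totals, the median of all genes tested moved by 0.31 on the log2 scale in Alyref against Nxf1, by 0.23 in Chtop against Nxf1, by 0.13 in Alyref against Control and by -0.18 in Nxf1 against Control. With DESeq2's size factors it moved by -0.11 in Alyref and in Chtop against Control. No called member changed direction. The share of calls in the positive direction over all genes moved from 40.5 to 50.5% in Alyref against Chtop, from 61.2 to 84.4% in Alyref against Nxf1 and from 55.3 to 75.2% in Chtop against Nxf1 with library totals, and from 63.6 to 52.6% in Chtop against Control with DESeq2's size factors. In Alyref against Control 4 of 8 calls were positive, 11 of 30 with library totals and 0 of 4 with DESeq2's size factors.

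**Figure D3:**
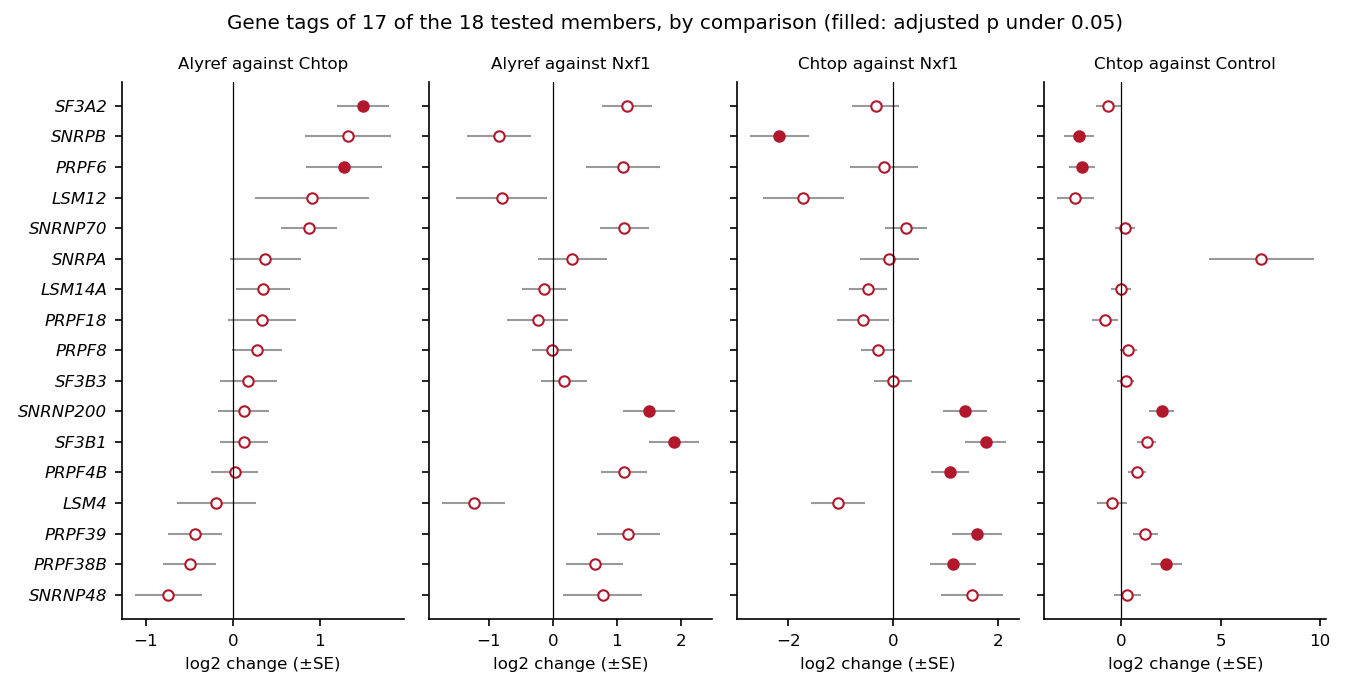
Log2 difference in gene tags (first group minus second, bars ± SE) of 17 of the 18 tested members in 4 comparisons, ordered by Alyref against Chtop, with filled points for an adjusted p under 0.05. SF3A2 (1.49) and PRPF6 (1.27) are filled at the top of the first panel, SF3B1 and SNRNP200 are filled in both panels against Nxf1, and the point of SNRPA against Control has no meaning as a fold because Control held none of its tags.

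Exonic and intronic tags were then tested apart, with 12 and 3 members among 1635 and 1176 genes. In exonic tags the members called were 6 in Chtop against Nxf1 (background 56.1%), 5 in Chtop against Control (52.8%), 2 in Alyref against Nxf1 (15.6%), 1 in Alyref against Chtop (15.8%) and none in Alyref or Nxf1 against Control (4.34 and 0%). Against Nxf1, 5 of the 6 were higher in Chtop (51.7%) and 1 was lower (4.46%), and against Control 4 of the 5 were higher (50.5%) and 1 was lower (2.32%). The 2 called in Alyref against Nxf1 and the 1 called in Alyref against Chtop were higher in Alyref (13.7 and 1.96%). In Alyref and Nxf1 against Control, 6 and 2 members had an unadjusted p under 0.05, as did 641 and 212 of all 1635 genes. DESeq2 called 1 member and none there, and 63 and 0 of all genes. Beside the genes named above by gene tags, Chtop exceeded Control in the exonic tags of SF3B1 (1.71, SE 0.65, adjusted p = 0.0295 by edgeR) and PRPF4B (1.68, SE 0.66, adjusted p = 0.0338). For SF3B1 this was lost without Alyref 2 (0.0558), Chtop 3 (0.111), Control 2 (0.119) or Control 3 (0.15), with library totals alone (0.0601) and without the filter (0.0746). For PRPF4B it was lost without Alyref 2 (0.0615), Alyref 3 (0.0512), Chtop 1 (0.0502), Chtop 3 (0.0747), Control 2 (0.165) or Control 3 (0.105), with library totals alone (0.0588), by DESeq2 (0.0523) and without the filter (0.104). PRPF38B had the largest exonic difference from Control, 3.70 (SE 1.05, adjusted p = 0.00657), on 1 Control tag, and it was lost only without Control 3 (0.0539). SNRNP200 was higher by 2.28 (SE 0.76, adjusted p = 0.0157) and SNRPB lower, at -2.32 (SE 0.79, adjusted p = 0.0170). Both were lost without Control 2 (0.106 and 0.167) or Control 3 (0.114 and 0.0958), and SNRPB also without the filter (0.268). None of the other splicing factor genes was called in Alyref against Chtop, 2 of the 12 tested were called in Alyref against Nxf1, 6 in Chtop against Nxf1 and 5 in Chtop against Control, all higher in the first group.

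In the remaining comparisons the exonic calls, SNRNP70 aside, were of members that were also called by gene tags. SF3A2 was higher in Alyref than in Chtop by 1.63 (SE 0.46, adjusted p = 0.0169 by edgeR), a call lost without Alyref 2 (0.205) or Alyref 3 (0.193), by DESeq2 (0.118) and without the filter (0.0693). As with its gene tags, SF3A2 passed that filter through its Alyref libraries. SF3B1 was higher than in Nxf1 by 2.05 in Alyref (SE 0.54, adjusted p = 0.0139) and by 1.92 in Chtop (SE 0.54, adjusted p = 0.00470). The former was lost without Alyref 2 (0.0790), Nxf1 2 (0.0943) or Nxf1 3 (0.139), and the latter was kept in all 21 alternatives. PRPF39 was higher in Chtop than in Nxf1 by 1.72 (SE 0.59, adjusted p = 0.0148) and SNRNP200 by 1.43 (SE 0.54, adjusted p = 0.0247). Both were lost without Nxf1 2 (0.0783 and 0.0738) or Nxf1 3 (0.158 and 0.185), and without the filter (0.0643 and 0.110), PRPF39 also by DESeq2 (0.107) and SNRNP200 also without Alyref 2 (0.0521). SNRPB was lower in Chtop than in Nxf1 at -2.24 (SE 0.62, adjusted p = 0.00423), which was kept in all 19 alternatives. PRPF4B, at 1.29, was lost without Alyref 2 (0.0685), Alyref 3 (0.0524), Chtop 3 (0.0628) or Nxf1 3 (0.278), and without the filter (0.134).

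Of the intronic tags, LSM12 was the single member called, lower in Chtop than in Control at -2.23 (SE 0.95, adjusted p = 0.0464 by edgeR, with 43.8% of genes called and 43.6% lower in Chtop). LSM12, a partner of ataxin-2, had 95 intronic and 7 exonic tags. Its intronic tags passed the filter on low counts only through Nxf1 1, Control 1 and Control 2. Being tested thus already rested on high values in Nxf1 and Control, and the difference of Chtop from Control carries that selection. The call was lost without Alyref 2 (0.0506), Alyref 3 (0.0552), Chtop 3 (0.159), Nxf1 3 (0.0536), Control 1 (0.0591), Control 2 (0.513) or Control 3 (0.0573), without the 4 libraries numbered 1 (0.0898), with library totals alone (0.0605), without the filter (0.367) and with tags of overlapping genes (0.0562). In the other 5 comparisons no member was called, where 1.79, 0, 4.93, 2.13 and 55.5% of genes were called for Alyref against Control, Nxf1 against Control, Alyref against Chtop, Alyref against Nxf1 and Chtop against Nxf1, 1 member had an unadjusted p under 0.05 in the last of them and none in the others, and DESeq2 called none of the 3 members in any of the 5.

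The balance of exonic to intronic tags within a gene was tested in 18 members among 3304 genes. It was higher in Chtop than in Control in 6 members (background 32.8%): PRPF6, PRPF38B, SF3A2, SF3B1, PRPF4B and SF3B3. SNRNP48, a protein of the minor spliceosome that recognises its 5′ splice site, was the single member with a higher balance in Chtop than in Nxf1 (background 43.5%), with 95 exonic and 6 intronic Chtop tags and 5 and 4 Nxf1 tags. No member was called in Alyref against Control (0.908%), Alyref against Chtop (0.938%), Alyref against Nxf1 (2.03%) or Nxf1 against Control (0%), where 4, 0, 1 and 2 members had an unadjusted p under 0.05 and DESeq2 called none. In Chtop against Control, the adjusted p of the 6 members was between 0.0889 and 1.0 without Control 2 and between 0.0617 and 0.444 without Control 3, so that none was then called. SNRNP48 was lost without Alyref 2 (0.0667), Alyref 3 (0.0622), Chtop 1 (0.0567), Chtop 2 (0.0598), Chtop 3 (0.0662) or Nxf1 3 (0.512). Without Alyref 1, Alyref 2, Alyref 3, Chtop 1 or Chtop 3, PRPF38B (0.0501 to 0.0821), SF3B1 (0.0501 to 0.0939) and SF3B3 (0.0650 to 0.118) were lost too, SF3B3 also without Nxf1 2 (0.0521), and SF3A2 was lost without Chtop 3 (0.103). With the replicate block 5 of the 7 calls were lost, those of PRPF38B (0.0675), SF3B1 (0.0557), SF3B3 (0.0574), SF3A2 (0.0691) and SNRNP48 (0.103). Without the filter the call of PRPF6 was the only one kept, the others having an adjusted p between 0.0889 and 0.162. SF3A2 was also lost by DESeq2 (0.0800), SF3B1 and SNRNP48 with canonical exons (0.110 and 0.0543), and PRPF38B (0.0678), SF3B1 (0.0512), PRPF4B (0.0502) and SNRNP48 (0.0706) without the 4 libraries numbered 1. Of the other splicing factor genes, 8 of 18 were called in Chtop against Control and 8 in Chtop against Nxf1.

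Where in the exons the tags lay was followed further in the 51 members with at least 3 canonical exons. The tags of exons 1 and 2 numbered 836 in Alyref, 304 in Chtop, 76 in Nxf1 and 15 in Control. Those of the last exon numbered 951, 1077, 190 and 25, so the last exon had more Chtop than Alyref tags although Alyref was sequenced deeper. As a share, exons 1 and 2 held 23.8% ± 3.6 in Alyref, 13% ± 2.7 in Chtop, 13.6% ± 4.4 in Nxf1 and 18.7% ± 12 in Control. The clearest cases were SF3A2 and SF3B1, given above, and SNRNP70, in which exons 1 and 2 held 114 Alyref tags (11, 54 and 49 by library) and 13 Chtop tags (1, 8 and 4), the exons between 83 and 8, and the last exon 66 (1, 36 and 29) and 80 (5, 43 and 32). Each Alyref library thus had more tags in exons 1 and 2 than in the last exon, and each Chtop library had fewer. These genes were chosen after their values were seen, and the exon counts were not tested. Shares of exons 1 and 2 over all protein-coding genes are not given. Tags within 100 nt on either side of internal exon-exon junctions were also placed. Of these, 31.4% ± 1.0 lay 75 to 24 nt before the junction in Alyref and 24.4% ± 4.0 in Chtop. The shares were 37% ± 10 in Nxf1 and 28.8% ± 14 in Control. Over all protein-coding genes these shares were 32.3, 27.4, 29.2 and 30.1%.

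Exons that belong to other transcripts and lie outside the canonical exons held 11.5% ± 3.4 of member tags in Alyref, 7.93% ± 0.28 in Chtop, 7.12% ± 3.5 in Nxf1 and 13.8% ± 3.8 in Control, against 6.99, 6.03, 6.08 and 6.71% over all protein-coding genes. A large part came from 1 place. Intron 7 of SNRNP70 (chr19:49604729-49607890 in hg19, 3162 nt) held 285 tags, 34.7% of the tags of the gene, and 274 of them fell in exons of non-canonical transcripts. It had 15, 105 and 66 tags in the Alyref libraries, 5, 42 and 26 in Chtop, 0, 11 and 7 in Nxf1, and 2, 5 and 1 in Control. SNRNP70 is known to have an alternative exon in this part of the gene whose inclusion cuts the reading frame short. As an intron of the canonical transcript it was 0.90 higher in Alyref than in Chtop (log2, SE 0.69), which did not pass the test (adjusted p = 0.468 by edgeR over 398 introns). Of the members, this intron and LSM12 intron 2 were tested, and neither was called in any comparison, where 0.503% of introns were called in Alyref against Control, 11.6% in Chtop against Control, 0.251% in Alyref against Nxf1 and in Chtop against Nxf1, and none in the others. No member intron had an unadjusted p under 0.05. This measure of introns was added after the data had been seen.

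**Figure D4:**
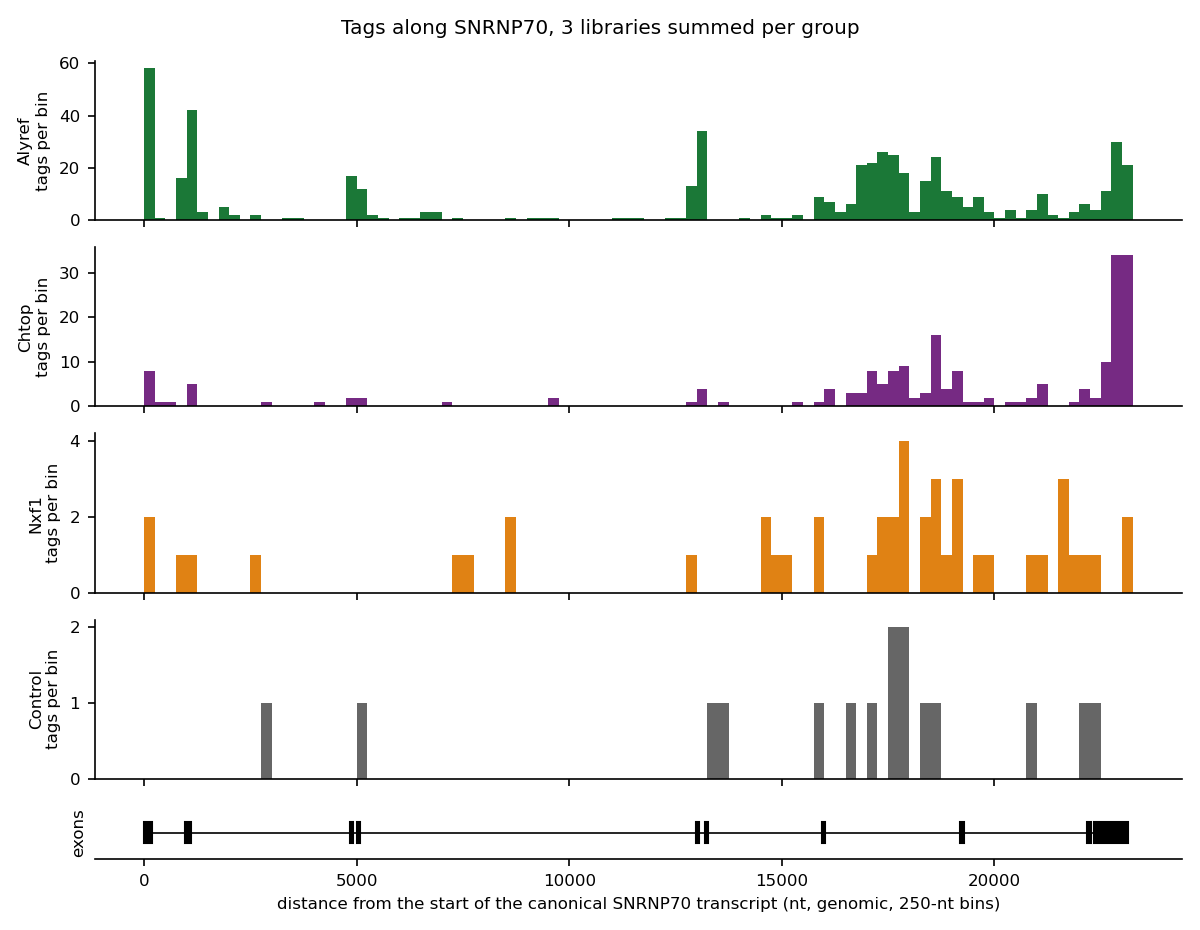
Tags per 250-nt bin along SNRNP70, 3 libraries summed in each group, against the distance in nt from the start of the canonical transcript, whose exons are the black boxes in the lowest panel, with a separate vertical scale for each group. Alyref peaks over exon 1 (58 tags in the first bin), Chtop peaks over the last exon, and all 4 groups have tags inside intron 7, which lies before the third exon from the right.

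The splice sites of that intron are shown with 10 bases of exon and 20 of intron, with the GT and AG of the intron in capitals, and with the stretch of 30 bases inside it that had most tags, in which capitals mark each base with a tag. That stretch had 19 tags, 10 from Alyref, 7 from Chtop, 2 from Nxf1 and none from Control, over 14 of its bases.
SNRNP70 intron 7, 5′ splice site: gacatgcactGTgagtacctcccgccgagc
SNRNP70 intron 7, 3′ splice site: cctccccacatctgttacAGccgcttacaa
SNRNP70 intron 7, chr19:49607352-49607381, plus strand: tcaTtTtCtGttCtGatGTctGTtCccCCC
The tags were spread over the stretch and did not pile up on 1 base. Intron 4 of SF3B1 and intron 4 of PRPF38B, also chosen after their values were seen, were of the same kind. The former had 61 tags, all in an exon of another transcript (41 in Alyref, 17 in Chtop, 2 in Nxf1 and 1 in Control), and the latter 62, of which 57 were in such an exon (37, 19, 5 and 1).
SF3B1 intron 4, 5′ splice site: tttgcagatgGTaattctttcccacttttc
SF3B1 intron 4, 3′ splice site: gttgctgttcttttctgcAGgagggaaaac
SF3B1 intron 4, chr2:198284870-198284899, minus strand: TttacttttacTTTTgttTtgggtacgctT
PRPF38B intron 4, 5′ splice site: tgatgaagagGTatgtcaacaagggtaata
PRPF38B intron 4, 3′ splice site: tatcttttgtgtttctgtAGgacctagatg
PRPF38B intron 4, chr1:109240954-109240983, plus strand: agTTtagaaaTgtAaggggctttTtcAtaT
The most tagged stretch of SF3B1 had 9 tags (7 Alyref, 2 Chtop) and that of PRPF38B 7 (5 Alyref, 2 Chtop).

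Introns proper, outside the exons of every transcript, gave 586 stretches in the members, of which 382 had a tag. Their 2519 tags were spread thinly: 25 stretches had 20 or more, and the 6 with the highest mean CPM held 12.3%. These were in LSM12 (intron 2), LSM14A (intron 1), PRPF6 (intron 9), SNRNP70 (intron 8), PRPF18 (intron 9) and LSM14B (intron 3). LSM12 intron 2 had 35 tags in Alyref, 20 in Chtop, 11 in Nxf1 and 7 in Control, LSM14A intron 1 had 42, 29, 6 and 3, and SNRNP70 intron 8 had 45, 17, 9 and 2. Longer stretches had more tags (Spearman rho 0.618 over the 586 stretches, which share libraries and depth). LSM12 intron 2 was the only one tested as a single intron, among 258, and it was called in no comparison, with an unadjusted p under 0.05 in Chtop against Control. Of all single introns, 0.775% were called in Alyref against Control, 3.49% in Chtop against Control, 0.775% in Alyref against Nxf1, 0.388% in Chtop against Nxf1 and none in the other comparisons. The splice sites of LSM12 intron 2 and of PRPF6 intron 9, which had most of its tags in Alyref (15) and Control (9), are shown as those of the introns that led by mean CPM in Control.
LSM12 intron 2, 5′ splice site: tgttagtaagGTaaggactcaagggcagat
LSM12 intron 2, 3′ splice site: tttcctctcttccaccctAGcttgccagca
PRPF6 intron 9, 5′ splice site: cttcggaaagGTgagcctccctcggaggtg
PRPF6 intron 9, 3′ splice site: tctcgtttgacctttcctAGccctcgagca

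Single bases seldom gathered tags. Of the member bases with any tag, 95.4% had exactly 1 in Alyref, 96.3% in Chtop, 98.6% in Nxf1 and 98.4% in Control, and the most on 1 base was 5, 7, 4 and 4. The base with most tags in each group is shown in a window of 21 bases of hg19, in capitals.
Alyref, PRPF4B exon 11, chr6:4052964-4052984, plus strand: cgagaggtgtTaaaaaaatat
Chtop, SF3B3 intron 15, chr16:70592489-70592509, plus strand: tgtctttattTaaaaaaaatt
Nxf1, LSM4 exon 5, chr19:18418339-18418359, minus strand: ttggtggccgGggccgaggtg
Control, PRPF6 intron 9, chr20:62638807-62638827, plus strand: cccttttcctCtttttttttt
The base in the coding part of PRPF4B had 5 Alyref tags, all in 1 library, and 4 Chtop tags. The SF3B3 base had 7 tags in a single Chtop library and none elsewhere, and the PRPF6 base had 4 tags in a single Control library and none elsewhere, beside a base with 2 Control tags 2 nt away. The base in the coding part of LSM4, a protein of the U6 ring, was the one tagged in all groups, with 2 tags in Alyref, 4 in Chtop, 4 in Nxf1 and 1 in Control. Further bases were the starts of SF3A2 and SF3B1 shown above for Alyref.
Chtop, PRPF3 intron 12, chr1:150317355-150317375, plus strand: tttttttcatCtttttttttt
Chtop, PRPF38B exon 6, chr1:109243353-109243373, plus strand: ttttttatttGaaaaaataca
Nxf1, PRPF38B exon 6, chr1:109243252-109243272, plus strand: tgatgcagagGtttttaggct
Nxf1, LSM5 exon 5, chr7:32526804-32526824, minus strand: agaaaatggaAttttttttcc
Control, LSM10 intron 1, chr1:36860848-36860868, minus strand: ataattattgTttctctaaat
These had 6, 5, 3, 3 and 2 tags in their group, and the PRPF38B and LSM5 bases lay in 3′ UTRs. Several windows hold a run of A or T at or next to the tagged base. Uracil was the base at 52.2% ± 0.68 of member tags in Alyref, 54.3% ± 3.2 in Chtop, 52.6% ± 5.4 in Nxf1 and 53.4% ± 6.4 in Control, with no order beyond the spread.

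Among the members, base composition was loosely related to the balance between Alyref and Chtop, and the relation was not tested. The 34 members with at least 30 exonic tags in Alyref and Chtop together were used. The GC content of their exons ran from 35.6 to 64.6%. Spearman's rho between GC content and the log2 ratio of Alyref to Chtop exonic tags was 0.362, against 0.0609 over 7834 protein-coding genes. The rho with exon length was -0.204 (all genes -0.0954), and GC content and exon length were themselves related among the members (rho -0.514). All points share the same libraries, so these are descriptions across genes, which are not independent replicates.

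**Figure D5:**
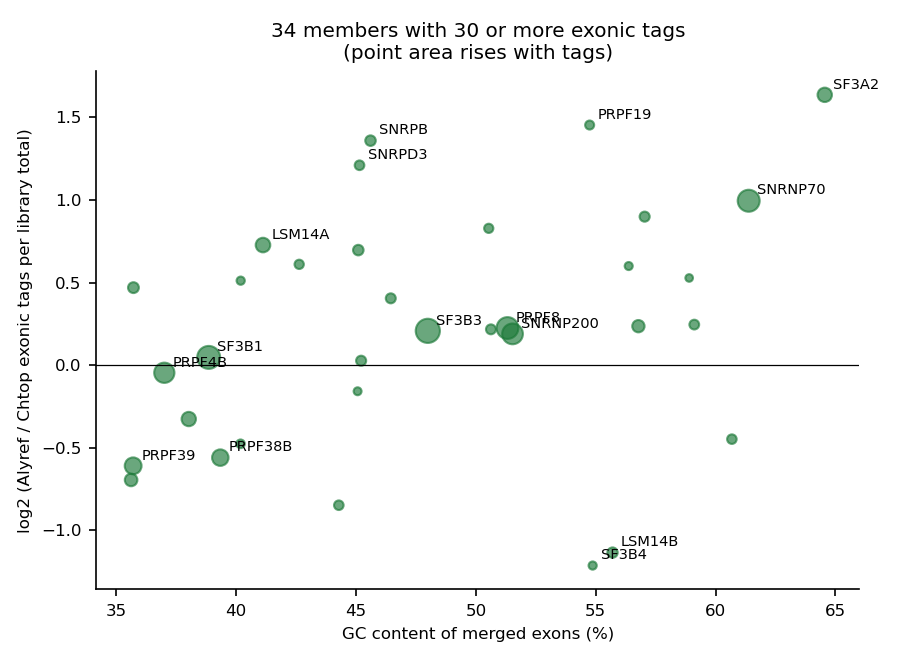
Log2 ratio of Alyref to Chtop exonic tags (each per library total, vertical axis) against the GC content of the merged exons in percent (horizontal axis) for 34 members, with point area rising with the number of tags. The relation is loose (rho 0.362), and SF3A2 stands at the top right.

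Some members could not be read cleanly. No member was without a tag in every library, but SNRPN had only 9 tags, all intronic, with a further 13 that fell in more than 1 gene, and SF3B5, which has a single exon, had 17, 3, 4 and 0 tags. In all, 11 members had tags in common with an overlapping gene, 157 tags that were left out, and 19 have annotated pseudogenes. The 74 pseudogene loci held 11 tags, and reads that map to several places were removed by the authors, so short Sm and LSM genes with near-identical copies may be undercounted.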

How the data were processed

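The deposited values are counts: for each of 12 libraries, the authors listed every crosslinked base with its number of deduplicated tags. They removed phiX reads with bowtie 1.1.2, took molecular identifiers with UMI-tools 0.5.3, trimmed with Reaper, mapped with STAR 2.4.2a to hg19 and the junctions of its annotation, kept reads that map to 1 place, merged lanes and removed PCR duplicates. Tags copied from 1 molecule in error, and reads dropped for mapping to several places, would change counts of genes with copies. Pooled files of a factor were not used.

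Here the tags were assigned to genes of GENCODE 44 lifted to GRCh37, without mitochondrial, read-through and duplicate Y entries (63793 genes, 19515 protein-coding), and a tag was left out where genes on its strand overlapped. Samples were grouped by their labels. Counts were tested in edgeR 4.0.16 (R 4.3.3; quasi-likelihood fit, TMM, filterByExpr), with all 12 libraries in 1 fit, 6 contrasts and Benjamini-Hochberg adjustment over all genes or introns tested, and a call is an adjusted p under 0.05. Exonic and intronic tags were fitted together, and exon against intron as an interaction with library as a term. Alternatives were other size factors, DESeq2 1.42.0, no filter, tags of several genes counted in each, at most 1 tag per base, canonical exons, a replicate block, and leaving out each library. The fits were tested on simulated data. Intervals are 95% Wilson intervals and cover counting error only.

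The name rule for the members uses no measured value, but it and the lists were set with earlier results of these data known. Genes named by rule were the 10 with the highest mean CPM, up to 4 called members in each direction of each comparison, the 6 leading introns, the 3 most tagged bases of each group and members with copies or without tags. One member gene is included in the counts and sums and is not reported here on its own.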

Additional observations from a re-analysis of the deposited data

Results flagged for a closer look

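For 7 members the balance of exonic to intronic tags differed between 2 groups by a test of the interaction itself (edgeR's quasi-likelihood test with Benjamini-Hochberg adjustment over 3304 genes). The values are log2 terms, the exonic difference minus the intronic difference. In Chtop against Control they were 9.16 for PRPF6 (SE 2.47, adjusted p = 0.00417), 5.71 for PRPF38B (SE 2.27, adjusted p = 0.0406), 4.29 for SF3A2 (SE 1.57, adjusted p = 0.0273), 3.91 for SF3B1 (SE 1.57, adjusted p = 0.0431), 3.54 for PRPF4B (SE 1.22, adjusted p = 0.0206) and 2.21 for SF3B3 (SE 0.92, adjusted p = 0.0488). In Chtop against Nxf1 it was 3.57 for SNRNP48 (SE 1.48, adjusted p = 0.0409). The size of the PRPF6 term is no bound, since its Control libraries held 0 exonic tags and 0, 6 and 7 intronic tags, that of SF3A2 rests on 1 exonic Control tag, and that of PRPF38B on 1 exonic and 2 intronic Control tags, all in Control 2, without which its adjusted p was 1.0. With the replicate block 5 of the 7 were lost: PRPF38B (adjusted p = 0.0675), SF3B1 (0.0557), SF3B3 (0.0574), SF3A2 (0.0691) and SNRNP48 (0.103). In Chtop against Control none of the 6 was called without Control 2 or without Control 3. PRPF6 passed the filter on low counts only through Alyref 1, Control 2 and Control 3. All its Control tags were intronic, so its term carries that selection. Over all genes tested, 32.8 and 43.5% were called in these comparisons, all in the same direction. Of the 18 members tested, the 6 called in the first are near that share, and the 1 called in the second is below it. The difference is thus one of the whole series and not particular to these genes.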

How the results depend on the processing

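Of the alternatives for single called members, 537 kept the call and 190 lost it, and none turned its direction. The calls kept in each alternative were SF3A2 in Alyref against Chtop (gene tags), and SF3B1 and SNRPB in Chtop against Nxf1 (gene and exonic tags). Counts of members called, with the reported count first, moved as follows. They show stability only, since calls over all genes moved as well. With library totals these went from 165 to 263 in Alyref against Nxf1 by gene tags, and from 255 to 360 by exonic tags. By DESeq2, gene tags gave 243 calls over all genes in Chtop against Control (508 by edgeR). They gave 95 in Alyref against Chtop (561) and 306 in Chtop against Nxf1 (888).

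Gene tags. Alyref against Control, 0: 1 with the replicate block and 1 without the 4 shallow libraries. Chtop against Control, 4: 0 by DESeq2, 1 without the filter, 2 with tags of several genes, 2 with at most 1 tag per base. Alyref against Chtop, 2: 1 by DESeq2, without the filter, with tags of several genes and with 1 tag per base, and 6 without the shallow libraries. Alyref against Nxf1, 2: 6 with library totals, 1 by DESeq2 and without the filter, 4 without the shallow libraries. Chtop against Nxf1, 7: 2 by DESeq2, 3 without the filter. Leaving out 1 library gave 0 to 1, 0 to 5, 1 to 5, 0 to 3 and 2 to 9, and 0 throughout for Nxf1 against Control.

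Exonic tags. Alyref against Control, 0: 1 by DESeq2, 4 with canonical exons, 3 without the shallow libraries. Chtop against Control, 5: 3 with library totals, 2 without the filter, 8 without the shallow libraries. Alyref against Chtop, 1: 0 by DESeq2 and without the filter. Alyref against Nxf1, 2: 4 with library totals and with canonical exons, 1 with DESeq2's size factors, by DESeq2, without the filter, with tags of several genes, with 1 tag per base and with the replicate block. Chtop against Nxf1, 6: 3 without the filter. Leaving out 1 library gave 0 to 2, 0 to 7, 0 to 1, 0 to 3 and 2 to 8.

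Intronic tags. Chtop against Control, 1: 0 with library totals and with tags of several genes, 2 without the filter. Alyref against Chtop, 0: 3 without the shallow libraries. Chtop against Nxf1, 0: 2 without the filter, 1 with 1 tag per base, with canonical exons and without the shallow libraries. Leaving out 1 library gave 0 to 3, 0 to 1 and 0 to 1. Exon against intron. Chtop against Control, 6: 1 without the filter, 2 with the replicate block, 3 without the shallow libraries. Chtop against Nxf1, 1: 2 by DESeq2, 0 with the replicate block, 2 without the shallow libraries. Leaving out 1 library gave 0 to 7 and 0 to 3, and 0 to 2 for Alyref against Control. Single introns of members, 0: 1 without the shallow libraries in Chtop against Control. The cause was not tested in any of these, beyond the fewer libraries or other genes tested.

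With canonical exons alone, the exonic share of the members was 67.9% in Alyref and 75.1% in Chtop, and the other groups and shares moved by less than 1 SD between libraries. The 3′ UTR share was already on canonical transcripts. In the 18 pairs of libraries with the same number, the correlation of deviations from the group means ran from -0.179 to 0.255, and 6 exceeded 0.1. Among pairs with different numbers only Alyref 3 with Chtop 2 (0.232) and Chtop 3 with Nxf1 1 (0.158) did. These values do not settle whether the numbers pair the libraries, and the main fit left them unpaired. By the labels, replicate 2 of each group was run on lanes 5 and 6 and the others on lanes 7 and 8, so the replicate block also holds the lanes. Of the called members it ended the calls of PRPF38B in Chtop against Nxf1, of exonic SNRNP70 and of 5 exon-against-intron differences, given with those results. Depth was a limit throughout: 18 of the 54 members had enough tags to be tested as genes.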
